A study of Mus musculus with 12 samples.

Results

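The genes described here encode proteins that hepatocytes secrete into the plasma. They are 38 genes: 7 carrier proteins, 8 apolipoproteins, 16 factors of clotting and fibrinolysis with their inhibitors, and 7 other protease inhibitors and complement proteins. The list was set by gene symbol, and a gene was represented by the brightest array probe whose RefSeq accession names it. Of the 38 genes, 36 were measured, among 19017 genes tested in all. Serpina1a and Serpina1b, copies of the alpha-1-antitrypsin gene, had no matching probe, and Serpina1d stands for that family with a probe that near-identical copies may share. All 36 probes were well above background on all 12 arrays.

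Hepatocytes were isolated from C57BL/6 mice, PGC-1alpha+/+ or PGC-1alpha-/- (written +/+ and -/-), kept in primary culture, and their RNA was hybridized to 1-colour Agilent arrays. Ppargc1a encodes PGC-1alpha, a transcriptional coactivator. The cells of every group were infected with an adenovirus at a multiplicity of 5, which delivered either a control short hairpin RNA or one against TLS (shTLS). The medium of all cultures held insulin and dexamethasone, each at 100 nM, and cells were harvested at 24 h. The labels also list 10% serum and a medium change at 4 h for all cultures. A mouse provided both a control and a shTLS culture, and with 3 mice of each genotype (6 in all) there were 4 groups of 3 arrays: +/+ control, +/+ shTLS, -/- control and -/- shTLS. Arrays are numbered 1 to 3 within a group. The control and shTLS arrays of 1 number and genotype come from the same mouse, and the 4 arrays of 1 number share a slide. The age of the mice and the deleted part of Ppargc1a are not given in the labels, so the Ppargc1a probe checks no label. Values are log2 signals, quantile normalized by the authors, and a difference of 1 is a doubling.

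Hepatocytes make most plasma proteins other than immunoglobulins. Albumin, transthyretin and transferrin carry hormones, vitamins, fatty acids and iron. Apolipoproteins build lipoprotein particles and steer their lipases and receptors, and clotting factors circulate as inactive proteases that cut one another in a cascade ending in fibrin. Fibrinogen is assembled from 3 chains, encoded by Fga, Fgb and Fgg, and is a classic acute phase protein whose genes respond to interleukin-6 through STAT3 and to glucocorticoids. Factor VII starts the cascade with tissue factor, and its promoter is a known target of the nuclear receptor HNF4.

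The sequences upstream of these genes are shown because the 3 fibrinogen genes varied together between cultures and because F7 was the member called in the averaged comparison of shTLS with control. They are the 250 bases (150 for F7) before the transcription start in RefSeq, build GRCm38.p6, written 5′ to 3′ on the strand of the gene. Fga lies on the plus strand at chr3:83025903-83026152, Fgb on the minus strand at chr3:83049864-83050113 and Fgg on the plus strand at chr3:83007474-83007723, so that the 3 genes are neighbours. The F7 sequence is on the plus strand at chr8:13025884-13026033. Capitals mark 3 motifs searched on both strands: CTGGGAA, the core of the interleukin-6 response element; TTCNNNGAA, the STAT palindrome; and a direct repeat of AGGNCA with 1 base between both copies, bound by nuclear receptors, which lies on the reverse strand of F7.
Fga: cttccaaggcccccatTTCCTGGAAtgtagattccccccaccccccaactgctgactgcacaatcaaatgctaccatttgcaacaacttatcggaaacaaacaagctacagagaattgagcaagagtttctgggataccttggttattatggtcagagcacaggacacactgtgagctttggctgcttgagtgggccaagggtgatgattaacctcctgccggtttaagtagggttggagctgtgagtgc
Fgb: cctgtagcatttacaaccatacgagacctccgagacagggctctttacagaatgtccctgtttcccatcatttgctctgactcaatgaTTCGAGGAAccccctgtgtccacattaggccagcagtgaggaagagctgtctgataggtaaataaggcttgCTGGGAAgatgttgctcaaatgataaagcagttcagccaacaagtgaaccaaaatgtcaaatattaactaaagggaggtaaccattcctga
Fgg: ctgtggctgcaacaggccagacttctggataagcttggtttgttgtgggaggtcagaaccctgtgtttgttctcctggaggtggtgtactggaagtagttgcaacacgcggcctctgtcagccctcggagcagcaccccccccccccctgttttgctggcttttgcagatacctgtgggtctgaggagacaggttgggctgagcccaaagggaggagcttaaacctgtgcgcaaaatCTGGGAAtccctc
F7: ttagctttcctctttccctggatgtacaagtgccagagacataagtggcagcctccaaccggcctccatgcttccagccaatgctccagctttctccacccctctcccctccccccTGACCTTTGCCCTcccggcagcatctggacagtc
In Fga the STAT palindrome spans bases -234 to -226 from the start. In Fgb that palindrome spans -162 to -154 and the interleukin-6 core -91 to -85, and in Fgg the core spans -13 to -7. The direct repeat of F7 spans -34 to -22. Over the 250 bases before 32851 mouse starts, 9.1% held CTGGGAA, 7.02% the palindrome and 0.338% the direct repeat. Of 30 members with a sequence, 4 held CTGGGAA (F9, Fetub, Fgb and Fgg), 4 the palindrome (F9, Fga, Fgb and Itih4) and 1 the direct repeat (F7). A match is a description of letters and no evidence that a factor bound there.

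Before normalization the shTLS arrays were dimmer, with a 75th percentile of 344 to 635 against 810 to 1064 with control, a gap that quantile normalization removes. All 8 hepatocyte markers measured, such as Hnf4a, Asgr1 and Arg1, were well above background on all 12 arrays, while no probe was matched to Cps1 and Pck1 by accession. Of 12 macrophage markers 11 were measured, and their summed linear level was 6866 to 17347 in the +/+ control group and 12548 to 88819 in the -/- control group. With shTLS it ranged from 5499 to 11626 in +/+ and from 8520 to 30452 in -/- cells.

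**Figure D1:**
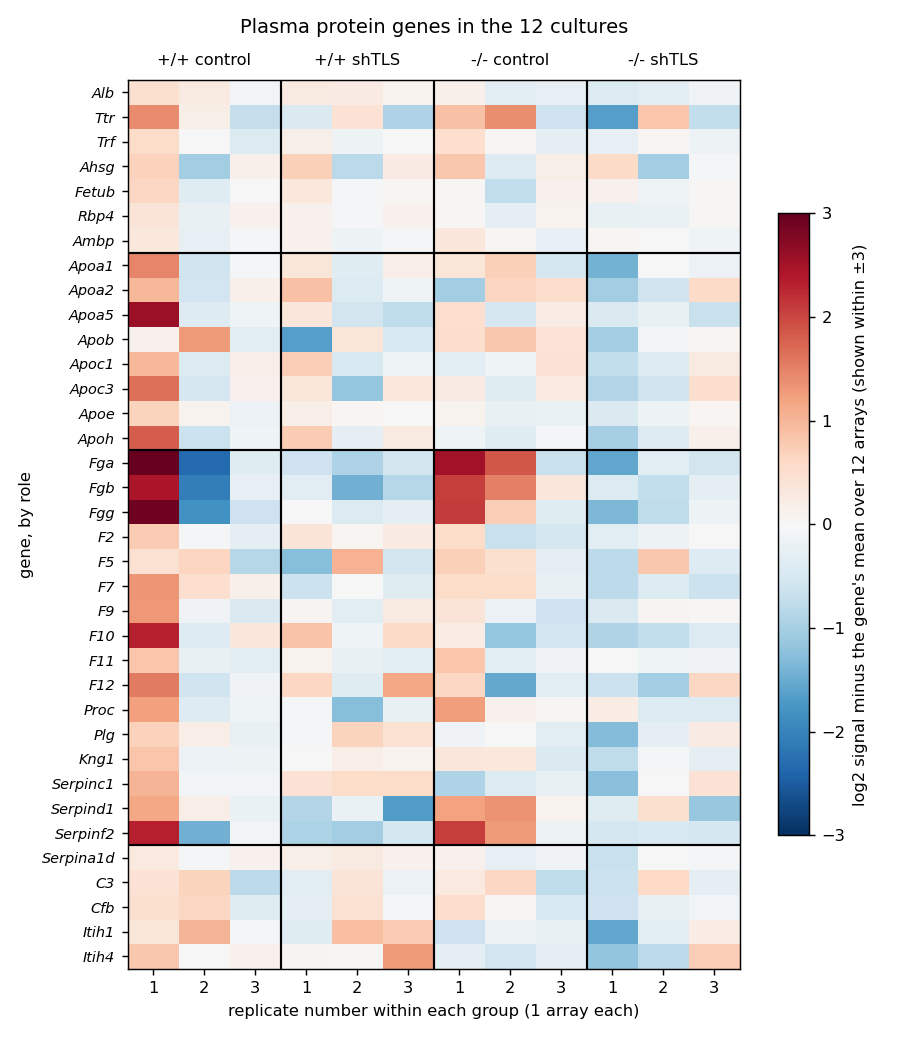
Log2 signal of the 36 measured genes (rows, in the order carriers, apolipoproteins, clotting and fibrinolysis, inhibitors and complement) on the 12 arrays (columns, by group and replicate number), as the difference from the gene's mean over all arrays; red is above and blue below that mean. The +/+ control array 1 is the highest array for 26 of the 36 genes, and the fibrinogen genes and Serpinf2 are high on +/+ control array 1 and -/- control arrays 1 and 2.

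The first question was whether the shRNA against TLS changed the plasma protein genes. Across the 36 genes the median difference, shTLS minus control, was -0.17 in +/+ cells, -0.29 in -/- cells and -0.23 averaged over genotypes, against -0.01, -0.02 and -0.02 over all genes. The difference was negative for 28, 31 and 31 of the 36 genes, against 50.4%, 51.8% and 50.9% of all genes. With arrays scaled to their 75th percentile 21 of the averaged differences were negative, and with scaling to spike-in probes all 36. In bulk cultures, fewer cells of a type and less RNA per cell cannot be told apart. These medians rested on the arrays of number 1: by pair the averaged medians were -0.96, -0.05 and 0.14 for numbers 1, 2 and 3. Without the 4 arrays of number 1, 13 of the 36 averaged differences were negative and their median was 0.08. Leaving out +/+ control array 1 alone left 22 negative. Cell type markers also differed in value, shTLS minus control averaged over genotypes. The 8 hepatocyte markers had a median of -0.68 with 5 negative, and the 11 macrophage markers a median of -1.097 with all 11 negative. The 6 cholangiocyte markers had a median of -0.80, the 6 stellate markers measured of 8 listed -0.27 and the 8 endothelial markers 0.18. By number the hepatocyte medians were -1.68, -0.04 and -0.19 and the macrophage medians -0.80, -1.79 and -0.73. None of these markers was called without a block, where 8.26% of all genes were. The replicate block called 1 hepatocyte (12.5%), 3 macrophage (27.3%) and 3 cholangiocyte markers (50%) lower, against 13.7% of all genes. The part of these markers in the values of the plasma protein genes was not tested.

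Few of these genes passed the test. In limma's moderated test with Benjamini-Hochberg adjustment over all genes (adjusted p under 0.05), no member was called in +/+ cells, where 1.2% of all genes were, and none in -/- cells, where 0.989% were. An unadjusted p under 0.05 was reached by 2 members in each genotype, and by 3139 of the 19017 genes in +/+ and 2315 in -/- cells. Averaged over genotypes, 1 member, F7, was called and lower, against 8.26% of all genes called in either direction and 3.1% called lower. Unadjusted, 4 members passed, as did 5348 of the 19017 genes. With the replicate number as a block, which takes out what the arrays of 1 slide and number share, 1 member was called in +/+ cells (Serpind1; background 12.5%), none in -/- cells (6.22%) and 4 averaged over genotypes (Apob, F7, Proc and Serpind1, all lower). Of all genes 29% were called in that averaged comparison and 13.7% were called lower. The same 4 members were called with the mouse as a block, against 32.8% of all genes, and Serpind1 in +/+ cells, against 15.6%. The members' shares, 2.78% for 1 gene and 11.1% for 4, lay under the share of all genes called in either direction. Averaged over genotypes they were near the share of all genes called lower: 2.78% against 3.1%, and 11.1% against 13.7% with the replicate block. In the averaged comparison without a block the members' median SE was 0.35, against 0.29 over all genes.

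F7 encodes coagulation factor VII. Its probe read 9.31, 8.49 and 8.15 on the +/+ control arrays and 7.34, 7.99 and 7.61 on the +/+ shTLS arrays. The -/- cells gave 8.55, 8.53 and 7.77 with control and 7.20, 7.57 and 7.34 with shTLS. Every shTLS array lay below every control array of its genotype, which no other member showed in both genotypes. F7 fell by 0.96 averaged over genotypes (SE 0.25, 95% interval -1.50 to -0.42, 1.94-fold, adjusted p = 0.0400; with the replicate block 0.0130) and was lower in 6 of 6 mice. The differences were -1.0 in +/+ cells (adjusted p = 0.201) and -0.91 in -/- cells (adjusted p = 0.327). The call was at the edge of the threshold: it was lost in 8 of the 12 fits that left out 1 array, with adjusted p from 0.0273 to 0.103, and in each fit that left out all arrays of a number (0.0925 to 0.290). Those 8 fits lacked +/+ control array 1, +/+ shTLS arrays 1 or 3, -/- control arrays 1 or 2, or -/- shTLS arrays 1, 2 or 3. All fits that left out arrays had no block, so they did not pair the cultures of a mouse. Leaving out arrays was not run with a block. The call was also lost without the filter on dim probes (adjusted p = 0.0555), where no member and 3.77% of all genes were called. In the averaged comparison the fits without 1 array called 644 to 1940 of the 19017 genes, against 1570 with all arrays. Those without number 1, 2 or 3 called 678, 140 and 408.

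Serpind1 encodes heparin cofactor II, an inhibitor of thrombin. It read 13.13, 12.17 and 11.76 on the +/+ control arrays and 11.08, 11.76 and 10.30 on the +/+ shTLS arrays, without overlap. Among the -/- cultures the values were 13.16, 13.30 and 12.06 with control and 11.61, 12.45 and 10.83 with shTLS, and there the groups overlapped. The averaged difference was -1.26 (SE 0.39, adjusted p = 0.0685), negative in 6 of 6 mice, and it passed with the replicate block (adjusted p = 0.00489; 0.0319 in +/+ cells alone).

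Proc encodes protein C, the anticoagulant protease. On the +/+ control arrays it read 14.80, 13.19 and 13.46 and on the +/+ shTLS arrays 13.53, 12.30 and 13.37. With control it read 14.84, 13.71 and 13.62 in -/- cells and with shTLS 13.81, 13.16 and 13.18. Within every mouse the shTLS array was the lower one, but the groups overlapped in both genotypes, and number 1 was the highest in each group. The averaged difference of -0.71 (SE 0.36, adjusted p = 0.221) passed with a block (adjusted p = 0.0285 with the number, 0.0281 with the mouse).

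Apob encodes apolipoprotein B, the structural protein of very low and low density lipoproteins. Its probe read 11.89, 13.04 and 11.45 on the +/+ control arrays and 10.11, 12.14 and 11.29 on the +/+ shTLS arrays, which overlapped. For -/- cells the values were 12.31, 12.58 and 12.19 with control and 10.74, 11.69 and 11.83 with shTLS, which did not. The averaged difference was -0.94 (SE 0.38, adjusted p = 0.141; with the replicate block 0.0344). It was negative in 6 of 6 mice, and 2 further probes of the gene gave -0.87 and -0.90. F7, Serpind1, Proc, Apob and Apoc1 were the 5 members lower in all 6 mice, as 18.9% of all genes were.

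**Figure D2:**
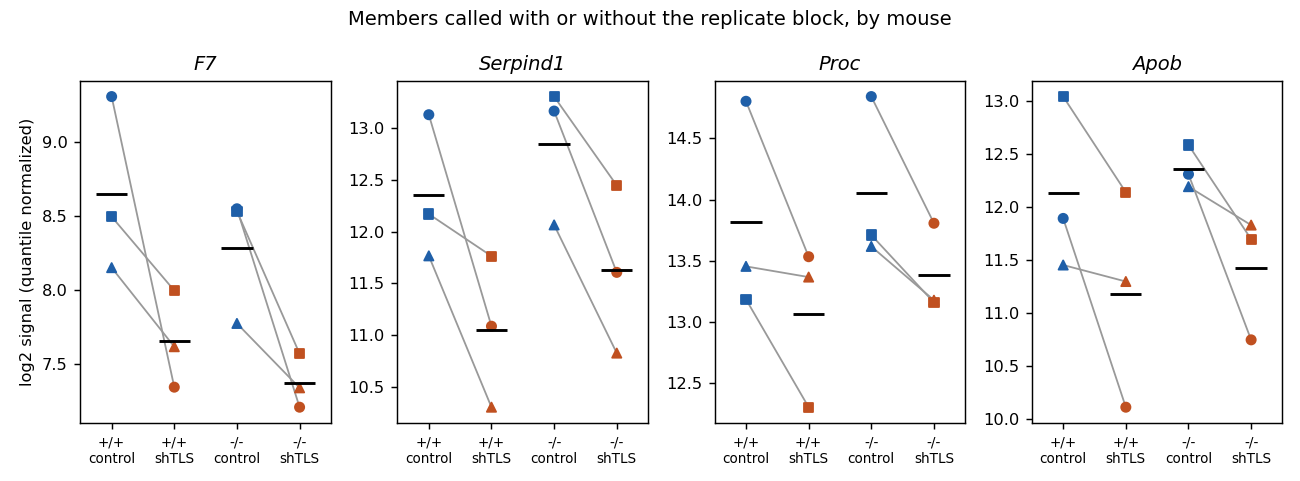
Log2 signal of F7, Serpind1, Proc and Apob on each array (blue, control; orange, shTLS; circle, square and triangle for numbers 1, 2 and 3), with grey lines joining both cultures of a mouse and black bars for group means. The lines run down in all 6 mice for each gene, and the groups separate in both genotypes for F7 alone.

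Counting groups that do not overlap, all 3 shTLS arrays lay below all 3 control arrays for 2 members in +/+ cells (F7 and Serpind1), against 9.25% of all genes. In -/- cells this held for 4 members (Apob, Fgb, F7 and Serpinf2), against 8.85%. No member lay wholly higher with shTLS, against 10.9% and 10.5% of all genes. The difference between the effects of shTLS in both genotypes was called for none of the members and for none of all genes (0%), with the replicate block as well. Unadjusted, 0 members and 50 of all genes passed it in limma.

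Among the carriers the differences were small. Their median, shTLS minus control, was -0.01 in +/+ cells, -0.13 in -/- cells and -0.07 averaged, with 6 of 7 averaged differences negative and none called. The averaged differences ran from -0.84 for Ttr to 0.11 for Fetub. Ttr encodes transthyretin, a carrier of thyroid hormone and of retinol-binding protein. It read 10.87, 9.63 and 8.73 on the +/+ control arrays and 9.0, 9.88 and 8.52 on the +/+ shTLS arrays. On the -/- arrays the probe gave 10.33, 10.84 and 8.82 with control and 7.80, 10.28 and 8.70 with shTLS. The groups overlapped in both genotypes, and the difference within +/+ mice was -1.86, 0.25 and -0.21 (averaged adjusted p = 0.323). Fetub encodes fetuin-B, a plasma protease inhibitor. It read 14.11, 13.13 and 13.47 with control and 13.81, 13.43 and 13.54 with shTLS in +/+ cells. In -/- cells it read 13.52, 12.74 and 13.62 with control and 13.61, 13.35 and 13.52 with shTLS, which overlapped as well.

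Albumin is the most abundant plasma protein. Its probe read 17.75, 17.55 and 17.19 on the +/+ control arrays and 17.55, 17.53 and 17.39 on the +/+ shTLS arrays. The -/- cells gave 17.44, 16.94 and 17.03 with control and 16.86, 16.96 and 17.19 with shTLS. All 12 values lie within 0.89, and the averaged difference was -0.07 (95% interval -0.45 to 0.31). Ahsg encodes fetuin-A, an inhibitor of mineral deposition. It read 17.13, 15.40 and 16.59 with control and 17.16, 15.63 and 16.69 with shTLS in +/+ cells. Among the -/- cultures the values were 17.25, 16.06 and 16.61 with control and 17.02, 15.44 and 16.39 with shTLS. In every group array 1 was the highest and array 2 the lowest. Trf, Rbp4 and Ambp, which encode transferrin, retinol-binding protein and the precursor of alpha-1-microglobulin, had averaged differences of -0.12, -0.05 and -0.05, none of them called.

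Alb, Trf, Rbp4, Ambp, Apoe, Serpina1d and C3 were among the brightest 1% of probes on all 12 arrays. Their averaged differences lay between -0.15 and -0.05 with the quantile normalization. With the arrays scaled to their 75th percentile they lay between 0.35 and 0.66, against a median of 0.09 over all genes, and with scaling to the spike-in probes between -0.56 and -0.25, against -0.82. The sign for these 7 genes therefore turned with the scaling, and relative to the median of all genes their own median was -0.06 with quantile values and 0.42 with each of the others. The part of the scaling in this was not tested further.

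The 8 apolipoprotein genes had negative differences, shTLS minus control, in both genotypes. Their medians were -0.21 in +/+ cells, -0.38 in -/- cells and -0.36 averaged, and none was called without a block. With the 75th percentile scaling 5 of the 8 averaged differences were negative, and without the arrays of number 1 also 5. Apoe encodes apolipoprotein E, which mediates the uptake of lipoprotein remnants, and had the smallest averaged difference, -0.10 (SE 0.19). It read 17.26, 16.69 and 16.40 on the +/+ control arrays and 16.77, 16.64 and 16.56 on the +/+ shTLS arrays. For -/- cells the values were 16.69, 16.35 and 16.38 with control and 16.16, 16.42 and 16.64 with shTLS. These groups overlapped in both genotypes.

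Apoa1 and Apoa2 encode the main proteins of high density lipoprotein, with averaged differences of -0.46 (SE 0.40) and -0.24 (SE 0.43). Apoc3 encodes an inhibitor of lipoprotein lipase and Apoa5 a protein that promotes its action, and their averaged differences were -0.48 (SE 0.43) and -0.76 (SE 0.48). Apoa5 read 11.22 on +/+ control array 1 and 7.86 to 9.11 on the 11 other arrays, so that 1 array set its spread. Apoc1, which encodes a small exchangeable apolipoprotein, had an averaged difference of -0.25 (SE 0.31), negative in 6 of 6 mice. None of these 5 was called with or without the block.

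Apoh encodes beta-2-glycoprotein I, which binds phospholipids. On the +/+ control arrays it read 15.85, 13.40 and 13.91 and on the +/+ shTLS arrays 14.80, 13.74 and 14.31. With control it read 13.90, 13.68 and 13.97 in -/- cells and with shTLS 13.04, 13.64 and 14.18. Array 1 of the +/+ control group was the highest of all 12, and the groups overlapped in both genotypes.

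Other genes of lipoprotein handling were read from a list of 18, of which 17 were measured. Their median averaged difference was -0.50, with 14 negative, and by number the medians were -1.22, -0.17 and -0.16. Abca1, which encodes the cholesterol efflux transporter, differed by -0.65 and passed limma's test with the replicate block (adjusted p = 0.0412) but not with the mouse as a block (0.0547). The replicate block called 13.7% of all genes lower in that comparison.

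The 16 genes of clotting and fibrinolysis had medians of -0.33 in +/+ cells, -0.42 in -/- cells and -0.32 averaged, with 12, 12 and 13 differences negative. By number the averaged medians were -1.22, 0.03 and 0.16 for numbers 1, 2 and 3. In fits that left out 1 array the +/+ median ran from -0.68 to 0.28, with 5 to 15 of the 16 negative. The most negative averaged differences were those of 2 fibrinogen chains, Fga and Fgb, and of Serpinf2, which encodes alpha-2-antiplasmin, the inhibitor of plasmin. Fgg and Serpinf2 are described in full because of their values. Fga read 11.81, 5.99 and 7.98 on the +/+ control arrays and 7.72, 7.42 and 7.77 on the +/+ shTLS arrays. In -/- cells it read 10.86, 10.19 and 7.67 with control and 6.78, 8.03 and 7.79 with shTLS. The +/+ control arrays thus spanned 5.82, with the highest and the lowest of all 12 values, and the -/- groups overlapped.

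Fgb read 17.78, 13.25 and 15.08 with control and 15.02, 13.88 and 14.46 with shTLS in +/+ cells. The -/- cells gave 17.41, 16.85 and 15.68 with control and 14.91, 14.58 and 15.06 with shTLS. The -/- groups did not overlap and the +/+ groups did. Fgg read 16.18, 11.44 and 12.64 with control and 13.25, 12.85 and 13.001 with shTLS in +/+ cells. Among the -/- cultures the values were 15.36, 13.99 and 12.89 with control and 11.92, 12.49 and 13.11 with shTLS. Array order was the same for all 3 chains on the control arrays of both genotypes.

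Serpinf2 read 14.25, 10.46 and 11.83 with control and 10.95, 10.87 and 11.39 with shTLS in +/+ cells. For -/- cells the values were 13.99, 13.19 and 11.76 with control and 11.37, 11.46 and 11.38 with shTLS. The shTLS arrays lay close together and the control arrays far apart, as for fibrinogen. Over the 6 control arrays the lowest and highest values differed 56.3-fold for Fga, 23.0-fold for Fgb, 26.6-fold for Fgg and 13.9-fold for Serpinf2. Over the 6 shTLS arrays they differed 2.37-fold, 2.27-fold, 2.52-fold and 1.51-fold. The averaged differences were -1.50 (SE 0.87, adjusted p = 0.285) for Fga, -1.35 (SE 0.64, 0.195) for Fgb, -0.98 (SE 0.72, 0.392) for Fgg and -1.34 (SE 0.58, 0.157) for Serpinf2. None passed the test, with the block either, where adjusted p was 0.0821 to 0.284.

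**Figure D3:**
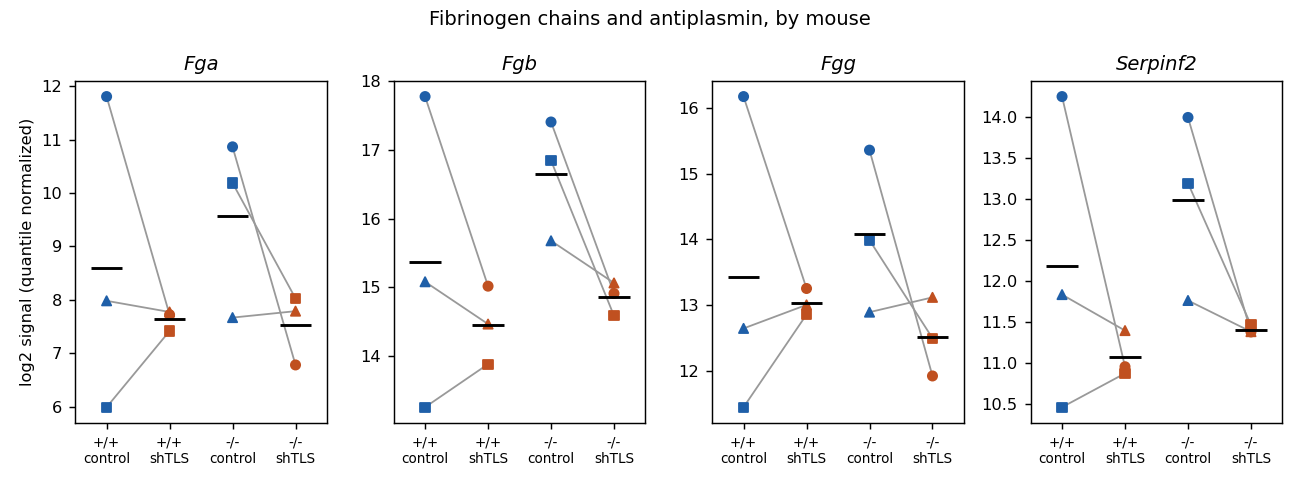
Log2 signal of Fga, Fgb, Fgg and Serpinf2 on each array (blue, control; orange, shTLS; circle, square and triangle for numbers 1, 2 and 3), with grey lines joining both cultures of a mouse and black bars for group means. Control arrays spread over 3.79 to 5.82 log2 units and shTLS arrays over 0.59 to 1.33.

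Mice of number 1 had the most negative differences of Fga and Fgb in both genotypes. Within +/+ mice 1, 2 and 3 Fga differed by -4.08, 1.43 and -0.21, and within -/- mice by -4.08, -2.16 and 0.12. Fgb differed by -2.76, 0.63 and -0.62 and by -2.50, -2.26 and -0.61. Without the arrays of number 1 the averaged difference of Fga was -0.21, that of Fgb -0.72, that of Fgg 0.13 and that of Serpinf2 -0.53. The same +/+ control array 1 had the highest hepatocyte markers, with a median of 1.71 above their means over 12 arrays, and the -/- control arrays 1 and 2 the highest macrophage markers, at 3.40 and 2.32. Their part in the fibrinogen values was not tested.

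A wider spread on control arrays was found for 27 of the 36 members (75%), against 54.7% of all genes. It held for 6 of 7 carriers, 6 of 8 apolipoproteins, 13 of 16 clotting genes and 2 of 5 inhibitors and complement genes. Without the 4 arrays of number 1 it held for 25 members (69.4%), against 56.7% of all genes. Without both arrays of +/+ mouse 1 it held for 19 members (52.8%), against 53.8% of all genes. The +/+ control array 1 held the highest value of 26 members (72.2%) and of 13.2% of all genes. The -/- shTLS array 1 held the lowest value of 14 members, for which no share of all genes was computed.

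Other clotting genes had small averaged differences. F2, which encodes prothrombin, read 15.02 to 16.42 on the 6 control arrays (median 15.51) and 15.37 to 16.05 on the 6 shTLS arrays (median 15.71), with a difference of 0.07 (SE 0.26). Serpinc1 encodes antithrombin and had the highest averaged difference of the 16 genes, 0.22 (SE 0.31). It read 14.16, 13.06 and 13.06 with control and 13.56, 13.69 and 13.68 with shTLS in +/+ cells, and 12.21, 12.73 and 12.92 and 11.88, 13.12 and 13.56 in -/- cells, overlapping in both. F12, which encodes the contact factor XII, differed by 0.13 (SE 0.50). F5, F9, F10 and F11, which encode factors of the cascade, differed by -0.38, -0.10, -0.25 and -0.23, Plg (plasminogen) by -0.08 and Kng1 (kininogen) by -0.24. None of these was called, and F9 had a second probe at -0.50.

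The related list of 15 clotting genes, all measured, had a median of -0.43 averaged, with 14 negative. By number the averaged medians were -1.12, -0.14 and 0.02. None was called without the block (lowest adjusted p = 0.0945), where 8.26% of all genes were. With the replicate block 4 (26.7%) were called lower, against 13.7% of all genes. These 4 were Serpina5 (the protein C inhibitor, -1.92), Ggcx (the vitamin K dependent carboxylase, -1.22), Lman1 (the cargo receptor of factors V and VIII, -0.77) and F3 (tissue factor, -0.76).

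The inhibitors and complement genes had a median averaged difference of -0.11 over the 5 measured, and none was called. Cfb, which encodes complement factor B, had the lowest at -0.27 (SE 0.25). It read 15.12, 15.25 and 14.29 with control and 14.35, 15.09 and 14.61 with shTLS in +/+ cells, and 15.18, 14.67 and 14.15 and 14.03, 14.41 and 14.57 in -/- cells. Itih4, which encodes an inter-alpha-trypsin inhibitor heavy chain, had the highest at 0.06 (SE 0.36). It read 10.49, 9.68 and 9.80 with control and 9.76, 9.72 and 10.96 with shTLS in +/+ cells, and 9.40, 9.10 and 9.38 and 8.50, 8.88 and 10.42 in -/- cells. The groups overlapped for both genes. C3, the central complement component, differed by -0.15 (SE 0.35), and the Serpina1d probe by -0.05 (SE 0.17).

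Among 29 measured of 30 other secreted plasma proteins, 24 averaged differences were negative, with a median of -0.30. By number the averaged medians of these 29 were -1.40, -0.04 and 0.33. Hp, which encodes haptoglobin, was the 1 gene of the 29 called lower (3.45%), at -1.24 (SE 0.29, adjusted p = 0.0290), against 3.1% of all genes. It read 17.98, 16.77 and 16.84 on the +/+ control arrays and 16.50, 16.17 and 16.25 on the +/+ shTLS arrays. On the -/- arrays the probe gave 17.75, 18.02 and 17.01 with control and 16.19, 15.41 and 16.46 with shTLS, and neither pair of groups overlapped. The replicate block added Cp (ceruloplasmin, -1.05), Mbl2 (mannose-binding lectin, -1.36) and Igfbp1 (-0.94). That made 4 of the 29 called lower (13.8%), against 13.7% of all genes. With the mouse as a block Mbl2 passed, while Cp (adjusted p = 0.0512) and Igfbp1 (adjusted p = 0.0581) did not.

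**Figure D4:**
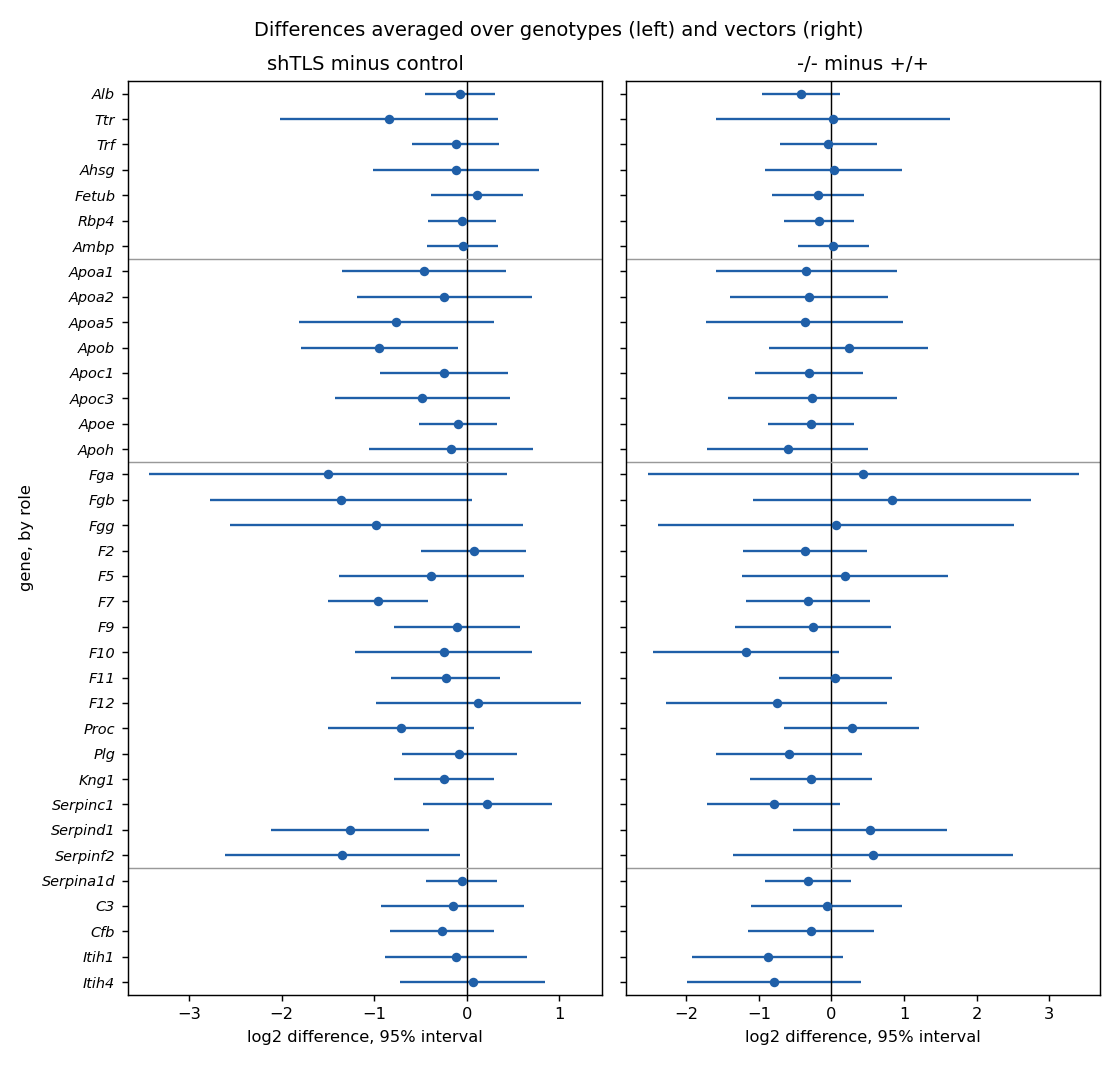
Log2 differences of the 36 genes with their 95% intervals, not adjusted for the number of genes, for shTLS minus control averaged over genotypes (left) and -/- minus +/+ averaged over vectors (right); grey lines part the 4 roles. F7 at -0.96 is the one gene on the left that passed the adjusted test, and every interval on the right includes 0.

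The second question was whether loss of PGC-1alpha changed these genes. None of the 36 members was called in limma with control shRNA, with TLS shRNA or averaged over vectors, where 0.0894%, 0.0841% and 0.116% of all genes were called. With the replicate block again none was called, against 0.158%, 0.168% and 0.72%. In the averaged comparison that fit had no random block for the mouse, so it took both arrays of a mouse as independent. Unadjusted, 0 members passed in each comparison, against 625, 404 and 524 of the 19017 genes. The median difference, -/- minus +/+, was -0.18 with control, -0.23 with TLS shRNA and -0.27 averaged, against 0.03, 0.02 and 0.02 over all genes. Of the 36 averaged differences 24 were negative, and 16 without the arrays of number 1, where the median was 0.04. Both comparisons with 1 vector come from the same mice.

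Markers of several other cell types differed in value between the genotypes, -/- minus +/+. Of 8 stellate markers listed 6 were measured, as Des and Lrat did not pass the filter on dim probes. Averaged over vectors, all 6 were higher in value in -/- cells (median 0.85), as were 7 of 8 endothelial markers (median 0.76), and none was called. By number the stellate medians were 2.07, 0.90 and -0.23 and the endothelial medians 1.52, 0.91 and -0.52. The 6 cholangiocyte markers had a median of -0.37, with 4 negative. Macrophage markers had the largest median of these lists, 2.06, and by number 1.81, 3.15 and 0.29. All 11 macrophage markers were higher in value in -/- cells with control shRNA, by a median of 2.54, and with TLS shRNA, by a median of 1.43, and none was called. Apoe, C3 and Cfb are also made by macrophages, and their averaged genotype differences were -0.28 (SE 0.27), -0.07 (SE 0.47) and -0.28 (SE 0.40). The part of RNA from other cell types in the genotype values was not tested.

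Among the carriers the averaged genotype difference ran from -0.42 for Alb (SE 0.24) to 0.03 for Ahsg (SE 0.43). Of the apolipoproteins 7 of 8 were negative, with a median of -0.31, from -0.60 for Apoh (SE 0.50) to 0.24 for Apob (SE 0.50). By number the apolipoprotein medians were -1.42, 0.13 and 0.21, and without the arrays of number 1 the median was 0.18 with 1 of 8 negative. Of the 16 clotting genes 8 were negative, and of the 5 inhibitors and complement genes all 5, with a median of -0.32.

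F10 encodes factor X, on which both arms of the cascade meet, and had the most negative genotype difference. It read 14.56, 11.87 and 12.59 on the +/+ control arrays and 12.49, 11.11 and 11.68 on the -/- control arrays. With shTLS it read 13.11, 12.13 and 12.83 in +/+ cells and 11.37, 11.52 and 11.86 in -/- cells. The groups overlapped with control and not with shTLS, and no share of all genes was computed for such a split between genotypes. The averaged difference was -1.18 (SE 0.58, 95% interval -2.46 to 0.10, adjusted p = 1.00; with the block 0.164). The fit with the block took both arrays of a mouse as independent. Fgb had the most positive value, 0.84 (SE 0.87), and differed by -0.24, 2.15 and 0.60 in numbers 1, 2 and 3.

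Itih1, the gene of another inter-alpha-trypsin inhibitor chain, read 8.15, 8.79 and 7.73 on the +/+ control arrays and 7.17, 7.64 and 7.55 on the -/- control arrays. With shTLS it read 7.42, 8.69 and 8.55 in +/+ cells and 6.24, 7.46 and 8.0 in -/- cells. The groups did not overlap with control and overlapped with shTLS. Other members also had genotype groups that did not overlap, such as Itih4 and Serpinc1 with control and Alb and Serpina1d with shTLS. No share of all genes was computed for this. The averaged difference of Itih1 was -0.88 (SE 0.47, with the block adjusted p = 0.182, both arrays of a mouse again taken as independent). C3 stood at the other end of that group. It read 17.64, 17.86 and 16.40 with control and 16.86, 17.59 and 17.02 with shTLS in +/+ cells, and 17.49, 17.80 and 16.42 and 16.56, 17.78 and 16.91 in -/- cells. On all 4 groups array 2 of C3 was the highest.

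How the arrays are scaled mattered for the groups of genes. With quantile values the averaged medians, shTLS minus control, were -0.07 for carriers, -0.36 for apolipoproteins, -0.32 for clotting genes and -0.11 for inhibitors and complement genes. With the 75th percentile they were 0.35, -0.24, -0.18 and 0.09, against 0.09 over all genes. Scaling to 8 spike-in probes gave -0.56, -1.15, -1.09 and -0.82, against -0.82 over all genes. It called 19 members (52.8%), against 54% of all genes, and 3 members in +/+ cells alone, against 20.3%. Scaling to the 75th percentile called 2 members averaged over genotypes, against 10.6% of all genes. The 75th percentile and spike-in scalings differ by a constant per array, so they give nearly the same values relative to the median of all genes. With quantile values and with these scalings the medians of apolipoproteins and clotting genes lay between -0.34 and -0.27 relative to it, and that of the carriers was -0.06 with quantile values and 0.26 otherwise.

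**Figure D5:**
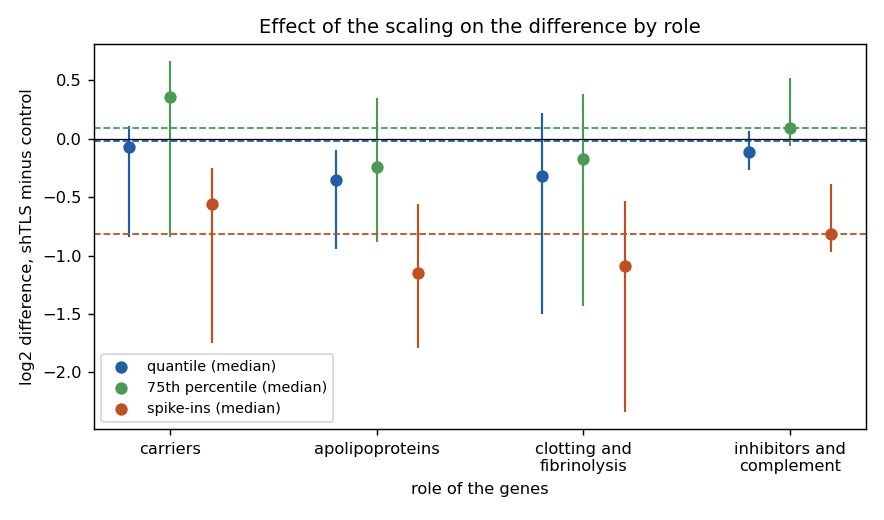
Median (points) and range (lines) of the averaged log2 difference, shTLS minus control, of the genes of each role under 3 scalings of the arrays; dashed lines mark the median of all genes in the same colour. The carriers lie at -0.07, 0.35 and -0.56, and only the carriers pass from below to above the median of all genes.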

How the data were processed

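RNA of 12 cultures was hybridized to Agilent 4x44K arrays. The authors deposited 1 table of log2 values, made, per the labels' protocols, by setting raw signals below 1 to 1 and by quantile normalization. The deposited array files hold processed signals as an intensity per spot, background-subtracted by Agilent Feature Extraction 10.1.1.1, per the file headers. These files also give other columns with flags per spot, per the file headers, and no spot was saturated. The log2 table was used for all values, and a quantile normalization recomputed from the intensities correlated with it by at least 0.99997 per array.

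Symbols came from RefSeq accessions (GRCm38.p6 tables, names only), which matched 24375 of 41174 probes. Probes had to be well above background throughout some group, on each of its 3 arrays, to be tested (24962 probes), and a gene was its brightest tested probe (19017 genes). Comparisons used limma 3.58.1 in R 4.3.3 with 4 group means and a two-sided moderated test on all 12 arrays, and Benjamini-Hochberg adjustment over all genes, with calls at an adjusted p under 0.05. For the genotype comparison averaged over vectors, mice entered as a random block, with a correlation of 0.582. The alternative with the replicate block did not include that random block. The pipeline was tested on simulated data. The number of arrays limits the precision, and an exact test of 3 against 3 arrays cannot go below p = 0.1.

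Same-numbered arrays share the mouse within a genotype, per the labels, and a slide. Deviations from group means of same-numbered arrays correlated by 0.233 to 0.671 and those of other numbers by at most 0.0959. Such deviations cancel out within a group, so both sets of correlations are not independent. The range for the same number also includes arrays of different mice, which share only the number and slide. All arrays were scanned on 1 day, and slide position was fixed by group, so an effect of position cannot be told apart from that of the group.

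The members and the related lists were chosen with earlier results of these data known. Values on each array are given for members called with or without the block and, in each role, for those with the highest and lowest averaged differences; Fgg and Serpinf2 were added after their values were seen. Alternatives were the replicate number or the mouse as a block, recomputed values, scaling to the 75th percentile or to 8 spike-in probes, normexp, other filters, the mean of a gene's probes, fits of the compared groups alone and leaving out arrays. Normexp was run on the median spot signal, in place of the mean that was planned. Results for some genes outside the members are not reported here.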

Additional observations from a re-analysis of the deposited data

Results flagged for a closer look

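Ahsg, the gene of fetuin-A, differed between the genotypes in the direction of its shTLS effect. All 3 +/+ mice had a higher value with shTLS (differences 0.03, 0.23 and 0.10) and all 3 -/- mice a lower one (-0.23, -0.62 and -0.22). The difference between both effects was -0.48 (SE 0.81) and did not pass limma's interaction test (adjusted p = 1.00). That SE is from the fit of 4 group means, which does not pair the cultures of a mouse. With the mouse as a block, 0 of the 19017 genes passed the interaction test.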

How the results depend on the processing

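The count of members called for shTLS in +/+ cells was 0, and became 1 with the replicate block, 1 with the mouse as a block (15.6% of all genes called) and 3 with scaling to the spike-ins (Apob, F7 and Serpind1; 20.3% of all genes). Averaged over genotypes it was 1, and became 4 with the replicate block, 4 with the mouse as a block, 2 with the 75th percentile (F7 and Ambp; 10.6% of all genes), 19 with the spike-ins (54% of all genes) and 0 without a filter (3.77% of all genes). Leaving out 1 array gave 0 to 2, and leaving out number 1, 2 or 3 in all groups gave 0, 0 and 0, in fits without a block. Of the 19017 genes these fits called 644 to 1940, and 678, 140 and 408, against 1570 with all arrays. The counts of the other 5 comparisons stayed at 0 under every alternative run. The averaged difference of Fgg turned to 0.13 without number 1. The other 7 differences followed through the alternatives (averaged: Apob, F7, Fga, Fgb, Proc, Serpind1 and Serpinf2) kept a negative sign in each. Normexp, run on the median spot signal, gave F7 a difference of -0.68 and kept its call (adjusted p = 0.0411). The block changed no call in the genotype comparisons. The causes of these changes were not tested. Only 3 arrays per group, a shared slide per number and a slide position fixed by group limit all values.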
